A study of Rattus norvegicus with 18 samples.

Results

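The genes of adenosine signaling and clearance were followed in the rat dorsal hippocampus during chronic ethanol exposure and withdrawal. They were taken by symbol from the table of 38445 genes, and there were 8 of them. The receptors were Adora1, Adora2a and Adora2b. Slc29a1 and Slc29a2 encode nucleoside transporters, Nt5e an enzyme that makes adenosine, and Ada and Adk the enzymes that remove it. Of these 8 genes, 7 passed the filter on low values, and Slc29a2 did not.

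Adenosine is released by cells or made outside them from ATP, and it acts on G protein-coupled receptors. The receptor encoded by Adora1 inhibits adenylyl cyclase and quiets excitatory synapses, and it is abundant in hippocampal pyramidal neurons. The receptors encoded by Adora2a and Adora2b stimulate adenylyl cyclase, and Adora2a is best known from the projection neurons of the striatum. Equilibrative transporters carry adenosine across the membrane, and adenosine kinase, found mainly in astrocytes of the adult brain, keeps its level low by converting it to AMP. Ethanol is known to inhibit the transporter encoded by Slc29a1.

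RNA-Seq libraries came from 18 adult male Sprague Dawley rats, 6 in each group, and each library was from 1 animal. Control rats received the Lieber-DeCarli control liquid diet for 16 days. Chronic ethanol rats received the same diet with 9% v/v ethanol after a gradual introduction, for 16 days, and were killed with 0 h of withdrawal. Withdrawal rats received the 9% diet for 15 days and then control diet for 24 h. The question was which transcripts differ under ethanol and after its removal. Exposure was forced, since the diet was the only food and fluid, and only males were used.

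Each library held between 30873228 and 42679748 counts assigned to genes, and the ranges of the 3 groups overlapped. The libraries carried 3 sets of index sequences. All control libraries had set 1, all chronic ethanol libraries and withdrawal rats 1 and 2 had set 2, and withdrawal rats 3 to 6 had set 3, so index set and control group cannot be told apart. Markers of hippocampal neurons averaged at least 0.5 CPM for 7 of 9 genes, while Fibcd1 and Spink8 lay near 0. Markers of neighbouring tissue differed between libraries. Chronic ethanol rats 1 and 4 were highest in striatal and thalamic markers, and withdrawal rat 5 was lowest in hippocampal markers, at a summed level of 264 CPM (counts scaled to library size) against 480 to 972 in all other libraries. All 4 red blood cell markers were lower in both ethanol-fed groups, with summed levels of 126 to 225 CPM in control, 37.0 to 96.1 in chronic ethanol and 41.5 to 150 in withdrawal. Fewer cells of a type and less RNA per cell cannot be told apart in such tissue.

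Levels of different genes can be compared only per length, and here they are given as CPM per kilobase of exon in control rats. Adora1 was the most abundant of the 8 genes, at 63.6 ± 5.85 (SD, n = 6). Adk followed at 29.4 ± 1.52, then Nt5e at 9.26 ± 1.57 and Slc29a1 at 6.78 ± 1.45. Adora2b reached 3.32 ± 0.545, Adora2a 0.588 ± 0.156 and Ada 0.400 ± 0.128. Thus the inhibitory receptor exceeded the other receptor transcripts by a wide margin, and the kinase exceeded the deaminase. Neighbours in this order did not overlap between rats except Nt5e with Slc29a1 and Adora2a with Ada, whose rats overlapped.

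**Figure D1:**
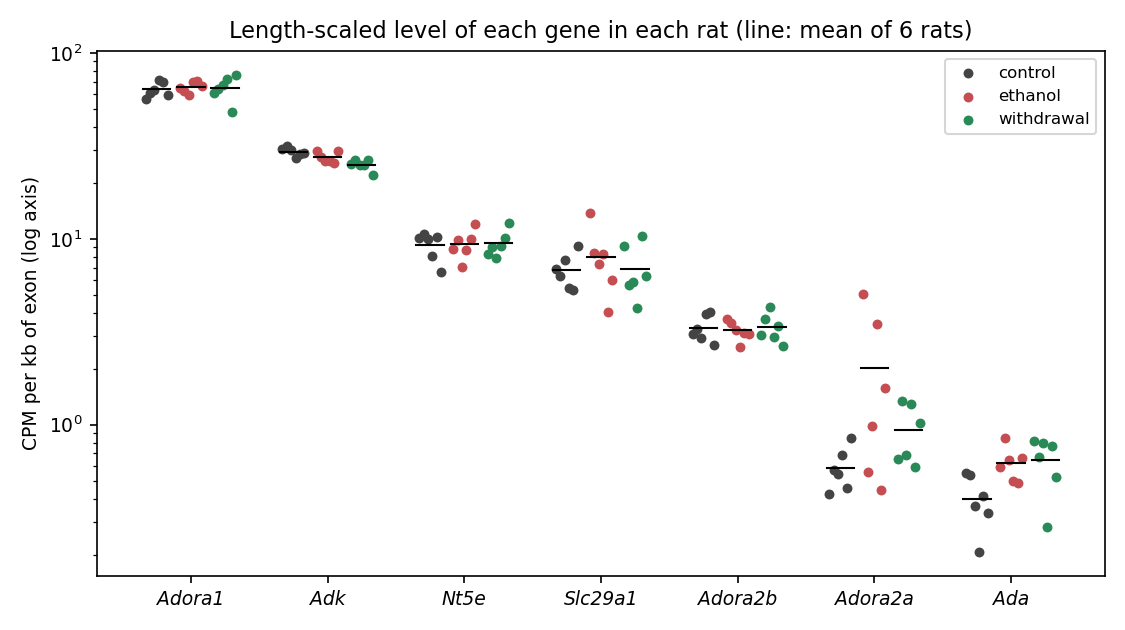
Level of each adenosine gene per kilobase of exon (CPM per kb, log axis) in each rat, by group; short lines are means of 6 rats. Adora1 lies highest, at a control mean of 63.6, and Ada lowest, at 0.400, and the chronic ethanol rats spread widely for Adora2a.

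In the comparison of withdrawal with control, 1 of the 7 tested genes, Adk, passed q < 0.1, and it was lower in withdrawal. Of all 17853 genes tested 5.41% passed in that comparison, and 2.55% of the genes tested passed with a lower level in withdrawal. No adenosine gene passed in chronic ethanol vs. control, where 0.493% of all genes did, or in withdrawal vs. chronic ethanol, where 2.72% did. These counts come from limma-voom with 3 surrogate variables, estimated covariates for unlabelled differences between libraries, with Benjamini-Hochberg adjustment (q) over all genes. At an unadjusted p under 0.05 the counts were 3, 1 and 1 of 7 in the 3 comparisons, beside 19.7%, 12.5% and 16.7% of all genes. DESeq2 passed 3 genes (Adk, Ada and Adora2a) in withdrawal vs. control and 0 in both other comparisons, where it called 9.86%, 3% and 7.45% of the genes it gave an adjusted p. The genes were picked with results of these data in view, so their group differences are a description. The median log2 fold change of the 7 genes was 0.06 in withdrawal vs. control, 0.02 in chronic ethanol vs. control and 0.02 in withdrawal vs. chronic ethanol, beside medians under 0.001 in size for all genes. When chronic ethanol rats 1 and 4 and withdrawal rat 5 were left out, a choice made after seeing the data, 1 gene still passed in withdrawal vs. control, but it was Adora2a and not Adk. In that fit 210 genes of the whole table passed in this comparison, against 965 with all rats.

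**Figure D2:**
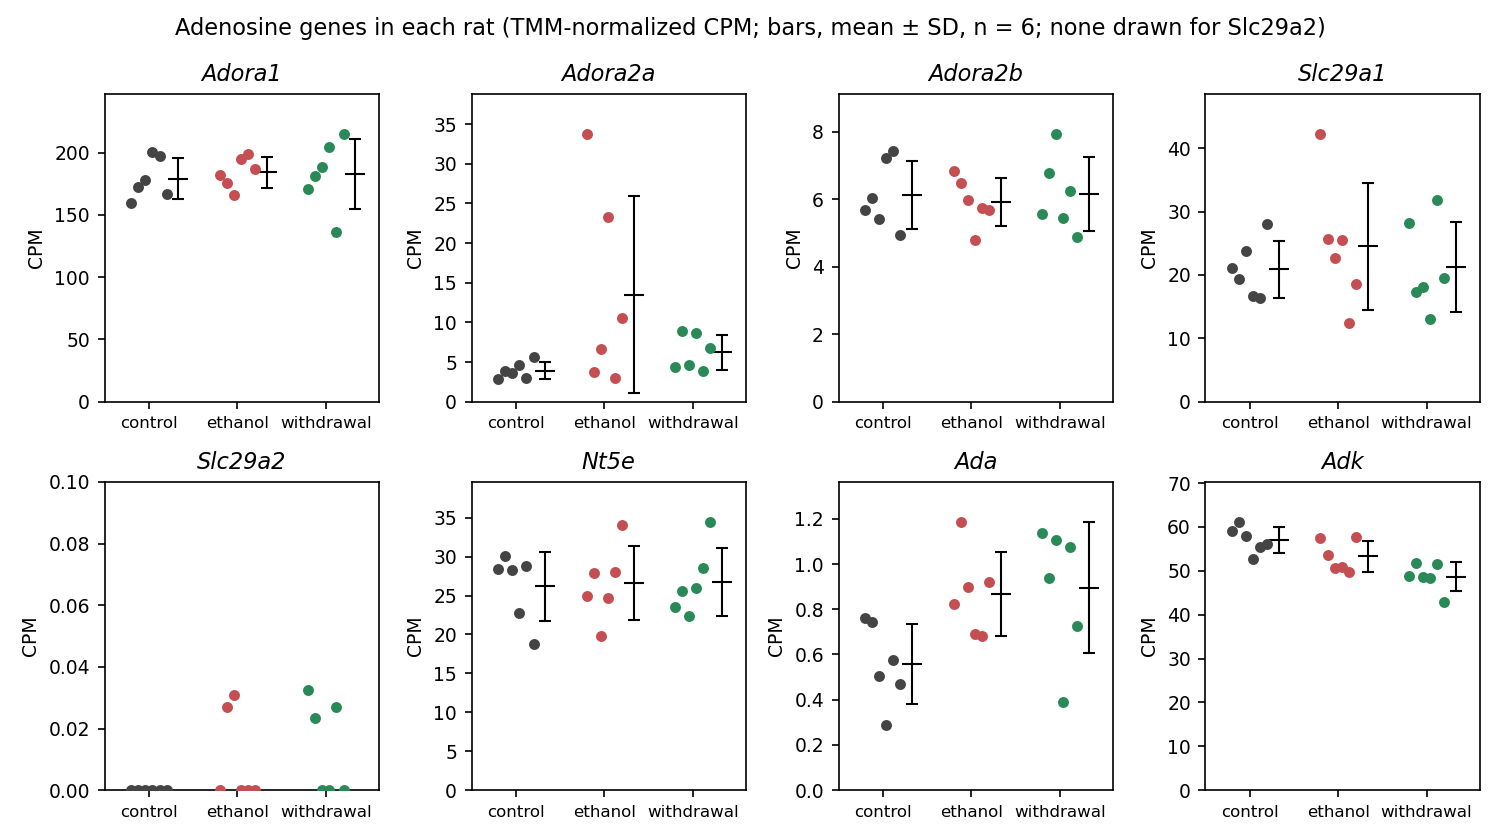
CPM of the 8 adenosine genes in each rat, by group; points are rats and bars are the mean ± SD of 6 rats, drawn for all genes but Slc29a2. For Adk all withdrawal rats lie below all control rats, for Adora2a chronic ethanol rats 1 and 4 stand far above the others, and Slc29a2 lies near 0.

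Adora1 (gene ID 29290, Rnor_6.0 chromosome 13, 51042111 to 51076913, minus strand) showed nearly the same level in the 3 groups. Control rats ran from 159 to 200 CPM with a median of 175. Chronic ethanol rats ran from 166 to 199 with a median of 184, and withdrawal rats from 136 to 215 with a median of 185. The groups overlapped, and the lowest value, 136, belonged to withdrawal rat 5, the rat lowest in hippocampal markers. The log2 fold change was 0.07 (95% interval -0.04 to 0.18, q = 0.464) for withdrawal vs. control by limma-voom. It was 0.03 (-0.09 to 0.14, q = 0.885) for chronic ethanol vs. control and 0.04 (-0.08 to 0.16, q = 0.746) for withdrawal vs. chronic ethanol. These intervals leave room for changes of up to 0.18 on the log2 scale. Across the 18 rats Adora1 moved with the summed hippocampal markers (Pearson r = 0.774, Spearman rho = 0.695), and r was 0.643 without chronic ethanol rat 1 and withdrawal rat 5. Among the genes most like it over the 18 rats were Trio (r = 0.918) and Map3k5 (0.910). Points in all such correlations share the library, and they are a description.

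Adora2a (gene ID 25369, chromosome 20, 14265251 to 14282873, minus strand) varied more among the chronic ethanol rats, relative to its mean, than the other tested genes of the 8. Control rats ran from 2.84 to 5.62 CPM with a median of 3.71. Chronic ethanol rats ran from 2.97 to 33.8 with a median of 8.54, and withdrawal rats from 3.92 to 8.97 with a median of 5.69. Chronic ethanol rats 1 and 4 had 33.8 and 23.3 CPM, more than any other rat, while rats 2 and 5 of that group had 3.69 and 2.97, within the control range. Of the chronic ethanol rats 4 of 6 exceeded every control rat, and of the withdrawal rats 3 of 6 did. The mean of the chronic ethanol group, 13.5 ± 12.4 CPM (SD, n = 6), includes both of them.

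By limma-voom the log2 fold change of Adora2a was 0.66 (SE 0.29, 95% interval 0.05 to 1.26, q = 0.214) for withdrawal vs. control. It was 0.65 (SE 0.32, interval -0.01 to 1.32, q = 0.413) for chronic ethanol vs. control and 0.01 (interval -0.62 to 0.63, q = 0.996) for withdrawal vs. chronic ethanol. None of these passed the threshold, and the last interval allows a change in either direction. Without surrogate variables the 3 values were 0.64 (q = 0.721), 1.29 (q = 0.400) and -0.65 (q = 0.498), in the same order, and the last ran from -0.84 to 0.62 over 14 other settings, 6 of them with the other sign. The value for withdrawal vs. control passed in 4 of 13 other settings and in 1 of 18 fits that left out 1 rat, which gave q up to 0.373. That fit was without withdrawal rat 5, at 0.94 (q = 0.0201), while the highest value, 1.01 without withdrawal rat 6, did not pass. Leaving out chronic ethanol rats 1 and 4 and withdrawal rat 5 together gave 1.19 (q = 0.0397) for withdrawal vs. control.

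Markers of striatal projection neurons moved with Adora2a. All 9 averaged at least 0.5 CPM. Their summed level ran from 165 to 222 CPM in control, 188 to 644 in chronic ethanol and 213 to 287 in withdrawal, highest in chronic ethanol rats 1 and 4. Of the 9 markers 0 passed q < 0.1 in withdrawal vs. control by limma-voom (4 at an unadjusted p under 0.05), with 9 of 9 higher and a median log2 fold change of 0.38. In chronic ethanol vs. control 0 passed as well (4 unadjusted), with 9 of 9 higher and a median of 0.39. Over the 18 rats log2 Adora2a and the log2 marker sum had Pearson r = 0.948 and Spearman rho = 0.853. Without chronic ethanol rats 1 and 4 r was 0.823, and with each group centred on its own mean it was 0.927. Summed ependyma markers had r = 0.725 with Adora2a (rho = 0.552; r = 0.601 without chronic ethanol rats 1 and 6; 0.639 group-centred), and all 3 were higher at an unadjusted p under 0.05 in both comparisons with control, 2 of them called in withdrawal. Summed oligodendrocyte markers had r = 0.674 (rho = 0.628; r = 0.536 without chronic ethanol rats 4 and 5; 0.746 group-centred), with 0 of 6 called in either comparison. Thalamic neuron markers had r = 0.606 (rho = 0.302), and -0.008 without chronic ethanol rats 1 and 4. The part of these markers in the group differences of Adora2a was not tested. Its 3 most similar genes were Drd1, a dopamine receptor (r = 0.944), Adcy5, an adenylyl cyclase (0.939), and Gpr6 (0.934). Drd1 and Gpr6 are themselves on the striatal marker list.

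**Figure D3:**
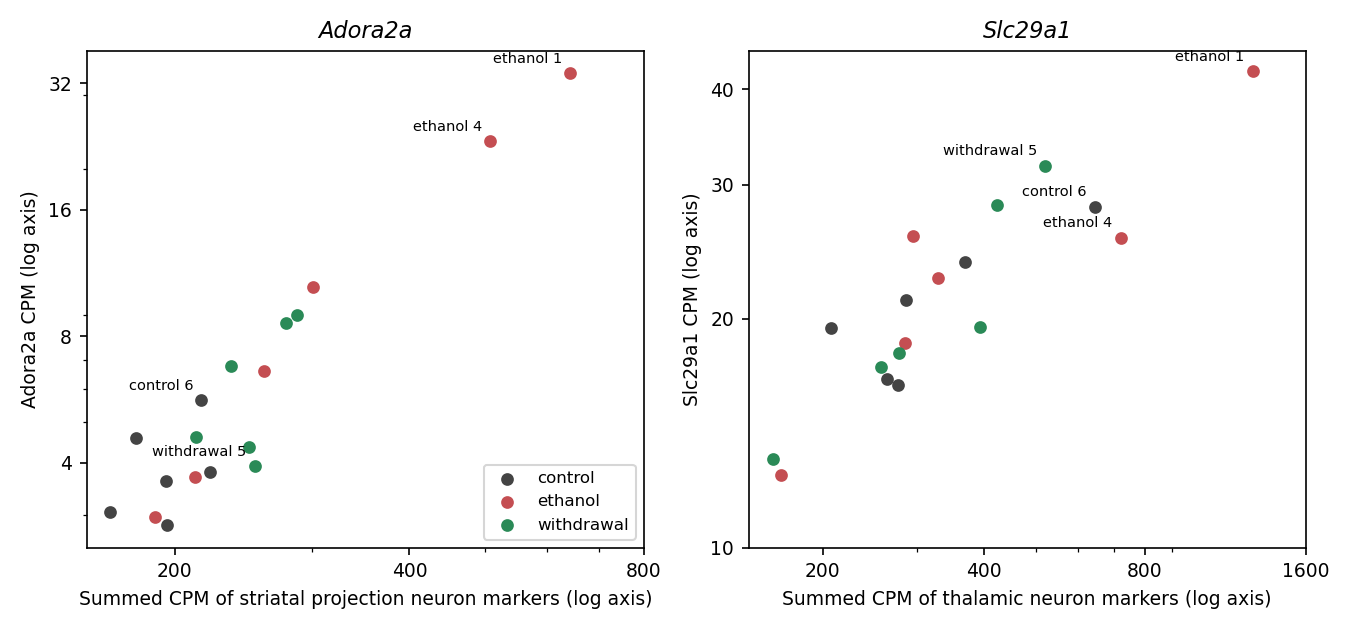
Left, Adora2a (CPM) against the summed CPM of 9 striatal projection neuron markers; right, Slc29a1 (CPM) against the summed CPM of 7 thalamic neuron markers; each point is 1 of 18 rats, all axes are log axes, and chronic ethanol (labelled ethanol) rats 1 and 4, withdrawal rat 5 and control rat 6 are named. Both genes rise with the neighbouring region's markers in rats of all 3 groups (r = 0.948 and 0.893).

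Adora2b (gene ID 29316, chromosome 10, 48569563 to 48586366, plus strand), a receptor that needs more adenosine for its activation than the other receptors, had close group means. Mean levels were 6.12 ± 1.00 CPM in control, 5.92 ± 0.707 in chronic ethanol and 6.14 ± 1.10 in withdrawal (SD, n = 6 each). Control rats ran from 4.94 to 7.44, chronic ethanol rats from 4.79 to 6.84 and withdrawal rats from 4.89 to 7.94, so the groups overlapped almost wholly. The log2 fold changes were 0.01 for withdrawal vs. control (interval -0.27 to 0.29), -0.01 for chronic ethanol vs. control (-0.32 to 0.29) and 0.02 for withdrawal vs. chronic ethanol (-0.30 to 0.34). Its most similar genes were Alg3 (r = 0.740), LOC102547634 (0.695) and Blcap (0.694).

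Slc29a1 (gene ID 63997, chromosome 9, 17784468 to 17799008, plus strand) encodes ENT1, an equilibrative transporter that takes up extracellular adenosine. Control rats ran from 16.4 to 28.1 CPM with a median of 20.3. Chronic ethanol rats ran from 12.5 to 42.3 with a median of 24.1, and withdrawal rats from 13.1 to 31.8 with a median of 18.8. The ethanol-fed groups spread more than control and held both the highest value (chronic ethanol rat 1) and the lowest (chronic ethanol rat 5). The log2 fold change was -0.05 (interval -0.18 to 0.08, q = 0.679) for withdrawal vs. control and -0.07 (-0.21 to 0.07, q = 0.689) for chronic ethanol vs. control by limma-voom. It was 0.02 (-0.12 to 0.17, q = 0.909) for withdrawal vs. chronic ethanol. Without surrogate variables the value for chronic ethanol vs. control turned to 0.16 and that for withdrawal vs. chronic ethanol to -0.19, and the latter had the other sign in 4 of 14 other settings.

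Slc29a1 moved with thalamic markers over the 18 rats (Pearson r = 0.893, Spearman rho = 0.899), with r = 0.868 without chronic ethanol rats 1 and 4. It moved against the summed hippocampal markers (r = -0.780, rho = -0.924; r = -0.842 without chronic ethanol rat 1 and withdrawal rat 5). All 7 thalamic markers averaged at least 0.5 CPM, with summed levels of 207 to 647 CPM in control, 167 to 1275 in chronic ethanol and 161 to 522 in withdrawal. The 3 genes most like Slc29a1 were Slc17a6, the vesicular glutamate transporter of thalamic neurons (r = 0.968), Abtb3 (0.966) and Calb2, the calcium-binding protein calretinin (0.965). Slc17a6 is on the thalamic marker list. The part of neighbouring tissue in the level of Slc29a1 was not tested.

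Slc29a2 (gene ID 65194, chromosome 1, 220306622 to 220314631, plus strand), which encodes a second equilibrative transporter, had 5 counts over all 18 libraries. No library had more than 1 count, and 13 libraries, among them all control libraries, were at 0. A count of 0 allows up to 3 counts, or 0.0703 to 0.0972 CPM at these depths, counting error only. The gene was not tested, and a near-zero count here does not show that the transcript was missing. Hprt1, a salvage enzyme that every cell uses, had 1 count over the 18 libraries. Of the 5 protein-coding genes within 50000 bases of Slc29a2, 4 (B4gat1, Brms1, Rin1 and Cd248) also failed to exceed 0.5 CPM in any rat, beside 28.1% of all protein-coding genes. The remaining neighbour, Npas4, had 6787 counts. The part of mapping in these near-zero counts was not tested.

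Nt5e (gene ID 58813, chromosome 8, 95969002 to 96012733, plus strand) encodes CD73, the membrane enzyme that makes adenosine from extracellular AMP. Control rats ran from 18.7 to 30.02 CPM with a median of 28.3. Chronic ethanol rats ran from 19.8 to 34.1 with a median of 26.4, and withdrawal rats from 22.3 to 34.4 with a median of 25.8. The groups overlapped, and only 1 rat in each ethanol-fed group lay above the highest control rat. The log2 fold change was 0.06 (interval -0.23 to 0.34, q = 0.856) for withdrawal vs. control by limma-voom, 0.02 (-0.28 to 0.33, q = 0.970) for chronic ethanol vs. control and 0.03 (-0.28 to 0.35, q = 0.941) for withdrawal vs. chronic ethanol. Among the genes most like it were Galnt15 (r = 0.841) and B3galnt2 (0.814).

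Ada (gene ID 24165, chromosome 3, 160115840 to 160139947, minus strand) encodes adenosine deaminase, which turns adenosine into inosine. It was the least abundant tested gene of the group, with 9 to 26 counts per library in control, 24 to 44 in chronic ethanol and 14 to 45 in withdrawal. Control rats ran from 0.289 to 0.762 CPM with a median of 0.541. Chronic ethanol rats ran from 0.680 to 1.19 with a median of 0.860, and withdrawal rats from 0.391 to 1.14 with a median of 1.01. In each ethanol-fed group 4 of 6 rats exceeded every control rat, and withdrawal rat 4, at 0.391, lay within the control range.

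The log2 fold change of Ada was 0.67 (SE 0.22, interval 0.21 to 1.13, q = 0.108) for withdrawal vs. control and 0.71 (SE 0.23, interval 0.22 to 1.20, q = 0.216) for chronic ethanol vs. control by limma-voom. Both comparisons share the control rats. Neither passed q < 0.1, and withdrawal vs. chronic ethanol gave -0.04 (interval -0.51 to 0.43, q = 0.953). For withdrawal vs. control the gene passed in 2 of 13 other settings, with q = 0.0982 by DESeq2 and 0.0916 when only genes above 0.5 CPM in at least 6 rats were tested. At the other end q was 0.364 without surrogate variables and 0.428 without chronic ethanol rats 1 and 4 and withdrawal rat 5, with a log2 fold change of 0.53. Leaving out 1 rat at a time gave q from 0.0530 to 0.217, and it passed without chronic ethanol rat 4, withdrawal rat 1 or withdrawal rat 4 (3 of 18 fits). Counts this low make each library's value imprecise. Summed endothelial markers moved with Ada (r = 0.688, rho = 0.643; r = 0.540 without control rat 4 and withdrawal rat 1), and they ran from 306 to 370 CPM in control, 332 to 406 in chronic ethanol and 328 to 440 in withdrawal. Of the 7 endothelial markers 3 (Pecam1, Flt1 and Vwf) were called higher in withdrawal vs. control and 6 of 7 were positive, with a median log2 fold change of 0.11. Their part in the level of Ada was not tested. Its most similar genes were Plekhg2 (r = 0.878), Col6a2, a collagen chain (0.810), and Efemp2, a matrix protein (0.796).

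Adk (gene ID 25368, chromosome 15, 3033535 to 3435888, minus strand) encodes adenosine kinase, which converts adenosine to AMP. It was the 1 adenosine gene that passed the threshold, and it was lower in withdrawal than in control. Its start lies in Rnor_6.0 only 110 bases from that of Ap3m1, an adaptor subunit gene on the plus strand. The 250 bases before the Adk start are shown because Adk fell while its divergent neighbour did not pass the test, although the difference between both was not tested. They are from RefSeq, GRCr8 chr15:3295746-3295995, minus strand, and capitals mark CCAAT and GGGCGG on either strand.
Adk: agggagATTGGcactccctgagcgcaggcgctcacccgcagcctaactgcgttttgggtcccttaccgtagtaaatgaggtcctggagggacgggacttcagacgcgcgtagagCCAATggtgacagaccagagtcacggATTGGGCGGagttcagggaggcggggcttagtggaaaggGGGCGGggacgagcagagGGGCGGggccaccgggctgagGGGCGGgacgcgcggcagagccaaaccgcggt
The stretch holds 3 CCAAT matches and 4 GGGCGG matches, and one of each overlaps in the capitals near its middle. It holds 22 CG pairs, against a median of 5 over 33469 promoters of the same length, 13.7% of which have at least as many. A CCAAT match occurs in 34.02% of those promoters and a GGGCGG match in 30.5%. The cAMP element TGACGTCA (1.59% of promoters) and the STAT motif TTCNNNGAA (7.67%) had no match in these letters. Of the 7 adenosine genes with a promoter entry, Ada was the 1 with a STAT match. The Ap3m1 window in the same RefSeq table overlaps the Adk window by 28 bases. Starts 110 bases apart, as in Rnor_6.0, would give a larger overlap, so the starts behind these windows differ from those of the gene models counted. The bases shown may thus not adjoin the start of the counted Adk model.

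Control rats had 52.7 to 61.1 CPM of Adk with a median of 57.1. Chronic ethanol rats had 49.6 to 57.6 with a median of 52.2, and withdrawal rats 42.8 to 51.7 with a median of 48.7. All 6 withdrawal rats lay below all 6 control rats, an order found in 0.538% of all genes tested. Of the chronic ethanol rats 3 of 6 lay below every control rat, within the withdrawal range, and the other 3 lay within the control range. Withdrawal rat 6 was lowest, at 42.8, and stood apart from the other withdrawal rats, which ran from 48.4 to 51.7. The same rat had the highest summed choroid plexus markers of all 18 rats, at 5461 CPM where the others ran from 32.4 to 5433. It also had the highest meningeal fibroblast markers, at 489 CPM, but withdrawal rat 5, with 51.6 CPM of Adk, had 487. Over the 18 rats Adk had r = 0.149 with the choroid plexus sum (rho = 0.067; r = -0.182 without withdrawal rats 4 and 5). With the meningeal fibroblast sum r was -0.002 (rho = -0.020).

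The log2 fold change of Adk was -0.25 (SE 0.05, 95% interval -0.36 to -0.14, q = 0.0267) for withdrawal vs. control by limma-voom, a fold of 0.843. It was -0.11 (interval -0.22 to 0.01, q = 0.445) for chronic ethanol vs. control and -0.14 (interval -0.26 to -0.01, q = 0.244) for withdrawal vs. chronic ethanol. The last value was -0.06 without withdrawal rat 6, and its q reached 0.758 over the 18 fits that left out 1 rat. The value for withdrawal vs. control kept its sign in all 31 other fits, and 27 of them passed q < 0.1. Among the 4 that did not pass were those without withdrawal rat 6 (-0.19, q = 0.170), without surrogate variables (-0.23, q = 0.115) and without the 3 rats named above (-0.24, q = 0.111). Ap3m1 had means of 49.7 ± 1.91 CPM in control, 49.3 ± 2.23 in chronic ethanol and 48.0 ± 1.56 in withdrawal, with a log2 fold change of -0.04 (SE 0.04, q = 0.565) for withdrawal vs. control.

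Astrocyte markers, listed because astrocytes carry much of the brain's adenosine kinase, moved in both directions. In withdrawal vs. control 5 of 7 had a positive log2 fold change, 2 were called higher (Gfap 0.54, q = 0.0775, and Sox9 0.37, q = 0.0979, log2 fold changes by limma-voom) and 1 was called lower (Aldh1l1, -0.41, q = 0.0487), with a median of 0.07. Their summed level was 2836 to 3156 CPM in control, 2345 to 3164 in chronic ethanol and 2437 to 3915 in withdrawal. Over the 18 rats Adk and this sum had r = -0.539 (rho = -0.529; r = -0.454 without chronic ethanol rat 6 and withdrawal rat 3). Red blood cell markers, all 4 of which were called lower in withdrawal vs. control (median log2 fold change -1.53), moved with Adk (r = 0.4999, rho = 0.531; r = 0.630 without control rat 6 and chronic ethanol rat 1), and with each group centred on its own mean r was 0.145. The part of cell composition in the lower Adk was not tested. The named genes most like Adk were Acacb, an acetyl-CoA carboxylase (r = 0.834), and Nat8f3 (0.822), and the third was gene ID 108351688 (0.810), unnamed in the table used. With each group centred on its own mean these r were 0.621, 0.678 and 0.585.

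**Figure D4:**
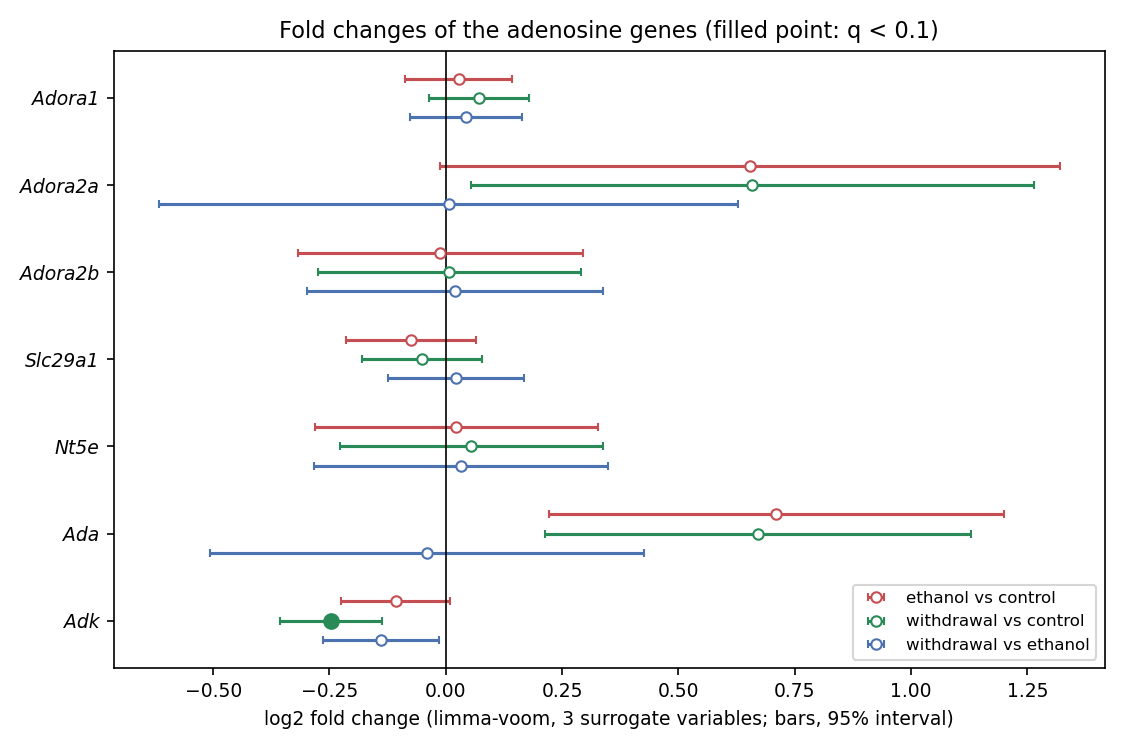
Log2 fold changes with 95% intervals for the 7 tested adenosine genes in the 3 comparisons, by limma-voom with 3 surrogate variables; filled points passed q < 0.1. Only Adk in withdrawal vs. control is filled, at -0.25, and the intervals of Adora2a and Ada are the widest.

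A wider list of 44 genes of adenosine handling covered release of ATP, its breakdown, nucleoside transport, formation and use of adenosine and AMP in the cell, salvage, and G proteins of the receptors. Of these, 36 were tested. In withdrawal vs. control 1 rose (Pnp) and 3 fell (Ak4, Ak5 and Gja1), 4 of 36 beside 5.41% of all genes (2.85% higher and 2.55% lower), and 10 had an unadjusted p under 0.05, beside 19.7% of all genes. The median log2 fold change was 0.02, beside 0.0003 for all genes. In chronic ethanol vs. control 0 passed by limma-voom, beside 0.493% of all genes, with 3 at an unadjusted p under 0.05, beside 12.5%, while DESeq2 passed 1 (Gja1), beside 3%. In withdrawal vs. chronic ethanol 1 rose (Ampd2) and 1 fell (Ak4), 2 of 36 beside 2.72% of all genes (1.23% higher and 1.49% lower). Without the 3 rats named above the counts were 3, 1 and 0, beside 210, 148 and 272 genes over the whole table.

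Of the 12 tested genes that form or use adenosine and AMP inside the cell, 0 rose and 2 fell (Ak4 and Ak5) in withdrawal vs. control, beside 2.85% of all genes higher and 2.55% lower. In withdrawal vs. chronic ethanol 1 rose (Ampd2) and 1 fell (Ak4), beside 1.23% higher and 1.49% lower. Ak4, an adenylate kinase of the mitochondrial matrix, ran from 83.2 to 106 CPM in control, 74.2 to 97.3 in chronic ethanol and 63.0 to 86.9 in withdrawal. It was -0.30 (SE 0.04, q = 0.00983) for withdrawal vs. control and -0.20 (SE 0.05, q = 0.0578) for withdrawal vs. chronic ethanol on the log2 scale by limma-voom. The first value passed in all 18 fits that left out 1 rat and in 11 of 13 other settings, and was lost without surrogate variables (-0.32, q = 0.135) and in a replicate block without them (-0.32, q = 0.234). The second passed in 7 of 14 other settings. It was lost with no filter (q = 0.109), with only the groups compared (q = 0.186), in a replicate block with surrogate variables (q = 0.191) and without chronic ethanol rats 1 and 4 and withdrawal rat 5 (q = 0.102). It was also lost without chronic ethanol rat 2, chronic ethanol rat 3 or withdrawal rat 6 (-0.19, -0.21 and -0.12, with q = 0.234, 0.186 and 0.390). Within index set 2 (6 chronic ethanol rats and 2 withdrawal rats, fitted without surrogate variables) the second was -0.11 (q = 0.839), while dropping the surrogate variables alone gave -0.17 (q = 0.276). Ak5, a brain-enriched adenylate kinase of the cytosol, was -0.16 (SE 0.04, q = 0.0560) for withdrawal vs. control, with groups that overlapped, at 211 ± 17.1 CPM in control and 186 ± 33.5 in withdrawal (SD, n = 6). It passed in 11 of 18 fits that left out 1 rat and in 9 of 13 other settings. Of the 8 tested hippocampal neuron markers 7 were also negative in that comparison (median log2 fold change -0.16) and 1 was called lower (Prox1, -0.26, q = 0.0968), and their part in the lower Ak4 and Ak5 was not tested. Ampd2, an AMP deaminase, averaged 100 ± 6.05 CPM in control, 87.6 ± 14.7 in chronic ethanol and 108 ± 5.80 in withdrawal. Its log2 fold change for withdrawal vs. chronic ethanol was 0.21 (SE 0.06, q = 0.0905), passed in 6 of 18 such fits and in 6 of 14 other settings, and was 0.29 (q = 0.770) within index set 2 without surrogate variables. Over all rats without surrogate variables it was 0.31 (q = 0.0758), and without chronic ethanol rats 1 and 4 and withdrawal rat 5 it was 0.13 (q = 0.283). Nt5c2, a cytosolic nucleotidase, gave -0.13 (q = 0.151) and Ahcy, which splits S-adenosylhomocysteine to adenosine, gave -0.02 (q = 0.817) for withdrawal vs. control, where Nt5c2 passed by DESeq2 and with only those groups fitted.

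Pnp, the phosphorylase that takes inosine to hypoxanthine, ran from 70.3 to 81.4 CPM in control, 77.3 to 86.8 in chronic ethanol and 69.5 to 93.2 in withdrawal. In withdrawal 5 of 6 rats exceeded every control rat. Its log2 fold change for withdrawal vs. control was 0.21 (SE 0.05, q = 0.0470) by limma-voom. Of 18 fits that left out 1 rat it was lost in 3, without control rat 3, withdrawal rat 1 or withdrawal rat 6 (0.19, 0.18 and 0.26, with q = 0.111, 0.111 and 0.114). Of 13 other settings it was lost in 2, without surrogate variables (0.19, q = 0.266) and in a replicate block without them (0.19, q = 0.377). The other tested genes of purine breakdown and salvage, Xdh (0.09, q = 0.735) and Gda (-0.13, q = 0.468), did not pass. Dpp4, which binds adenosine deaminase, gave 0.34 (q = 0.442).

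Among genes of ATP release, Gja1, the astrocytic gap junction protein connexin, fell by 0.13 on the log2 scale in withdrawal vs. control (SE 0.04, q = 0.0866). Its means were 407 ± 27.2 CPM in control, 355 ± 9.53 in chronic ethanol and 367 ± 14.9 in withdrawal (SD, n = 6). In chronic ethanol vs. control it was -0.18 (q = 0.106). The withdrawal call was kept in 7 of 18 fits that left out 1 rat and in 7 of 13 other settings. Panx2 (-0.17, q = 0.128) and Panx1 (0.18, q = 0.556), pannexin channel genes, did not pass by limma-voom, although Panx2 passed by DESeq2, with a replicate block beside the surrogate variables, and without withdrawal rat 2. None of the 5 tested genes that break down ATP, ADP and AMP outside the cell passed in withdrawal vs. control by limma-voom (2 at an unadjusted p under 0.05, beside 19.7% of all genes). Entpd2 and Enpp3 passed by DESeq2 (beside 9.86% of all genes), with the replicate block beside the surrogate variables and without withdrawal rat 2, and Entpd2 also passed with sample weights and without chronic ethanol rat 5. Entpd2 gave -0.27 (q = 0.112), Enpp3 gave 0.53 (q = 0.135) and Alpl gave 0.22 (q = 0.292).

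None of the 4 other nucleoside transporter genes tested passed in withdrawal vs. control (0 at an unadjusted p under 0.05, 0 by DESeq2), with 0.15 (q = 0.541) for Slc29a4, -0.08 (q = 0.525) for Slc29a3 and -0.06 (q = 0.780) for Slc28a2. The 6 G protein alpha subunit genes gave 0 calls as well (1 unadjusted, 0 by DESeq2). Over all genes the shares were 5.41% at q < 0.1, 19.7% unadjusted and 9.86% by DESeq2, so few or no calls are usual in lists this short. Gnas, which couples the stimulatory receptors, gave 0.12 (q = 0.231), and Gnai1 and Gnao1, which couple the inhibitory receptor, gave 0.02 each (q = 0.878 and 0.824). Adora3, which encodes another inhibitory receptor, had 0 counts in all 18 libraries, and Entpd1, which starts the breakdown of extracellular ATP, had 62 counts over the 18 libraries. The same limit as for Slc29a2 applies to both.

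**Figure D5:**
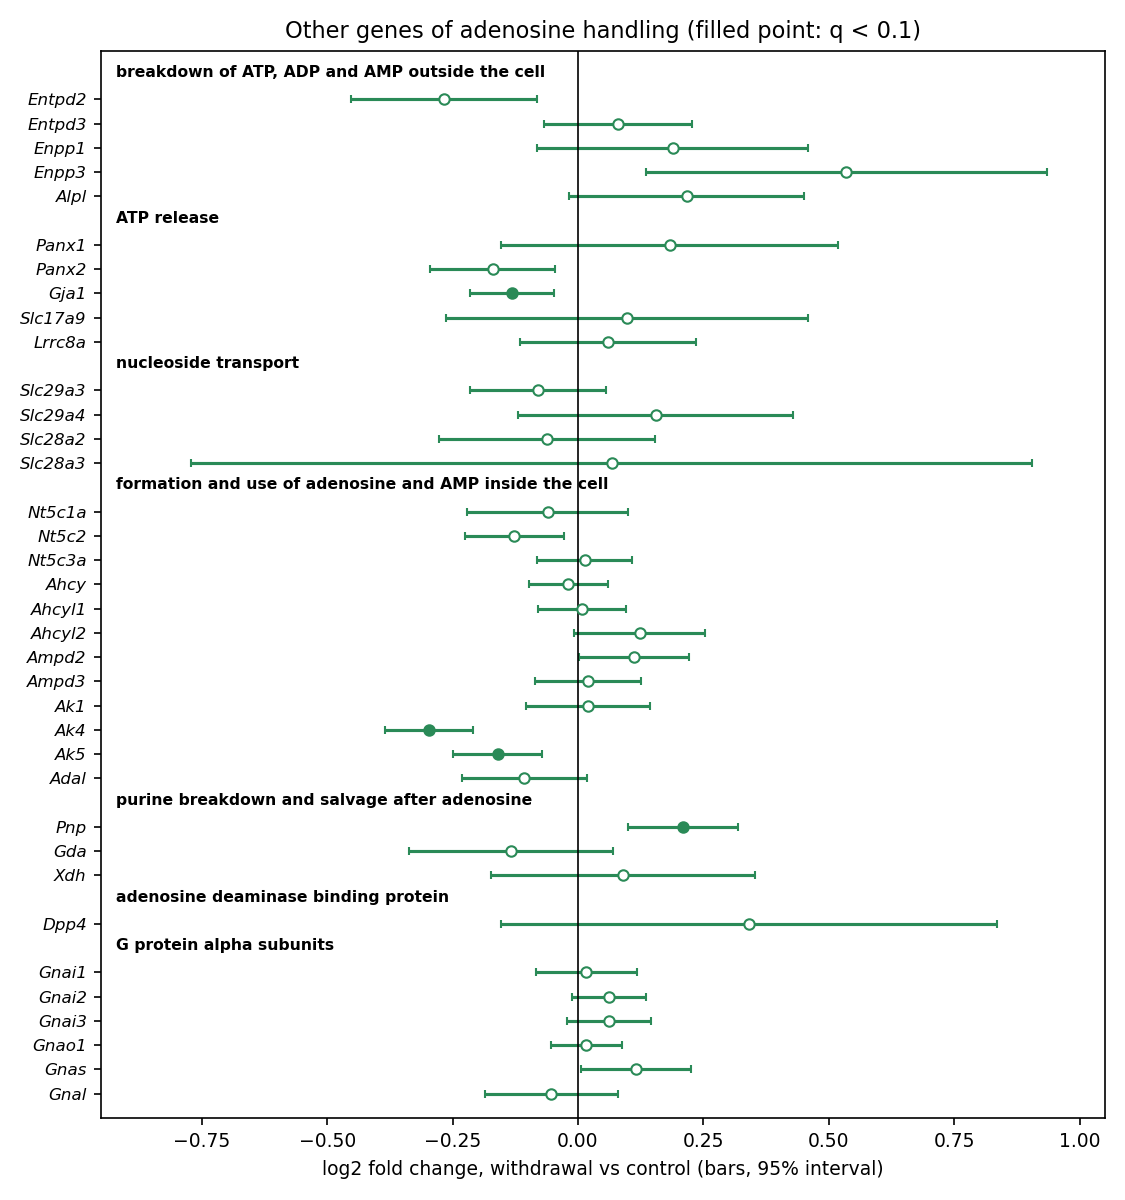
Log2 fold changes with 95% intervals in withdrawal vs. control for the 36 tested genes of the wider adenosine list, grouped by role; filled points passed q < 0.1. Pnp is the filled gene above 0, and Ak4, Ak5 and Gja1 are the filled genes below it, with Ak4 lowest at -0.30.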

How the data were processed

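RNA was measured in the dorsal hippocampus of 18 rats. The authors aligned paired reads to Rnor_6.0 with STAR (2.5.2a) and assigned them to NCBI gene models with featureCounts (1.5.0), and the deposited values are raw counts per gene for each library. The adenosine genes, the wider list and the marker lists were chosen with earlier results of these data known.

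Here the counts of 38445 genes were scaled by TMM (edgeR 4.0.16), and genes above 0.5 CPM in at least 1 rat (17853) were kept. All 3 groups entered 1 limma-voom model (limma 3.58.1, R 4.3.3) with 3 surrogate variables (sva 3.50.0). Adjustment was by Benjamini-Hochberg over all genes in each comparison, and q < 0.1 was called. Intervals are 95% by limma. The fit was tested on simulated data. DESeq2 (1.42.0), edgeR's quasi-likelihood test, other scalings, filters, covariates and left-out rats were the alternatives. Depth was 30873228 to 42679748 counts per library, with a median of 36302755. The 45 pairs of libraries within a group differed by at least 5.74 in chi-square per degree of freedom, so none was a repeat. Of the gene IDs, 29322 matched a name in the RefSeq GRCr8 table, which also gave the promoter sequence. Level per length is CPM divided by the exonic length in the files. No other gene in the count files overlapped the exons of the 8 adenosine genes.

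Named genes are the 8 adenosine genes, the genes of the wider list that were called in a comparison and up to 3 more in each role. To these come, for each tested adenosine gene, the 3 genes with the highest Pearson r of log2 CPM over the 18 rats among tested genes with a mean of at least 1 CPM. Some of the genes this rule names are not reported here.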

Additional observations from a re-analysis of the deposited data

Results flagged for a closer look

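Adk in the withdrawal group was the 1 flagged result among 21 pairs of gene and group. Withdrawal rat 6, at 42.8 CPM, was the lowest of 6 rats, and its gap to the next rat was 0.652 of the group's range on the log2 scale, above Dixon's 95% critical value for 6 samples. Chance flags about 1 in 20 groups. Without this rat the log2 fold change of Adk for withdrawal vs. control was -0.19 (q = 0.170, limma-voom), against -0.25 (q = 0.0267) with it.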

How the results depend on the processing

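Of 658 fold changes of the adenosine genes recomputed under other settings, 644 stayed on their side of the threshold, nearly all of them not called to begin with, 4 lost a call and 10 gained one. The 1 called value, Adk in withdrawal vs. control, passed in 27 of 31 other fits and kept its sign in 31. The genes called over the whole table in withdrawal vs. control, chronic ethanol vs. control and withdrawal vs. chronic ethanol were 965, 88 and 486. Without surrogate variables they were 41, 50 and 621, so the first 2 fell and the last rose. With 2 surrogate variables the first and last were 594 and 260. With DESeq2 all 3 were 1624, 473 and 1176, and with no filter 486, 9 and 166. Sample weights gave 440 and 1073 for the last 2, and fits of only the groups compared gave 28 and 0. Without the 3 rats that stood apart in region markers, chosen after seeing the data, the counts were 210, 148 and 272, and within index set 2, with the surrogate variables dropped as well, the last was 0. Adenosine genes called in withdrawal vs. control numbered 0 without surrogate variables, 3 by DESeq2, 2 under the stricter filter (Ada and Adk) and 2 with only the groups compared (Adk and Adora2a). Genes of the wider list in that comparison numbered 0 without surrogate variables, 8 by DESeq2 and 2 with no filter. In chronic ethanol vs. control 1 (Gja1) was called with 2 surrogate variables, by DESeq2, under the stricter filter, with sample weights and without those 3 rats. In withdrawal vs. chronic ethanol 1 was called with 0 or 2 surrogate variables or library totals, and 0 with no filter, with only the groups compared, within index set 2 without surrogate variables, and without those 3 rats. Over all genes, same-numbered rats did not deviate together (r from -0.325 to 0.383, over 0.1 in 4 of 18 pairs). The authors state that rats were pair fed. Differences in neighbouring tissue also enter these r, so they cannot tell whether replicate numbers mark pairs. A replicate block with 3 surrogate variables gave 33 and 1 genes in the last 2 comparisons, 2 adenosine genes in the first (Adk and Adora2a) and 0 wider-list genes in the last. The block without surrogate variables gave 0, 0 and 14 genes, 0 adenosine genes and 0 wider-list genes in the first and last. Leaving out 1 rat at a time gave 23 (without withdrawal rat 6) to 1911 (without withdrawal rat 2), 0 to 258 and 0 to 1800 genes. It gave 0 to 2, 0 and 0 adenosine genes, and 1 to 7, 0 to 1 and 0 to 4 wider-list genes. The number called thus depended on single rats and on the surrogate variables, and the cause was not tested. Depth limits Ada, at 9 to 45 counts per library, and Slc29a2, at no more than 1.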
